A study of Mus musculus with 4 samples.

Results

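The immunity-related GTPases (IRGs) described here are 8 mouse genes taken from the deposited gene tables by their symbols, out of 22620 genes in each table: Iigp1, Igtp, Irgm1, Irgm2, Ifi47, Tgtp1, Tgtp2 and Gm4951. The symbols alone pick the members, but the family was chosen for study with earlier results of these data known. Their transcripts were followed in immune cells of MC38 tumours grown in knockout (KO) mice and in wild-type (WT) mice, with 2 single-cell libraries per genotype. MC38 is a mouse colon adenocarcinoma line. All tumours were digested with enzymes and enriched for CD45-positive cells on magnetic beads, so both genotypes went through the same dissociation. The age of the mice, the number of mice behind each library, the design of the knockout allele and the genotype of the grafted tumour cells at the targeted gene are unknown here. Nothing says that the libraries came from separate mice, so p-values cover no more than library-to-library spread, part of which may be technical.

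In mice the IRGs are among the most strongly interferon-gamma-induced genes of macrophages and other cells. They are best known for cell-autonomous defence: the effector GTPases Iigp1 (Irga6), Tgtp1 and Tgtp2 (both Irgb6) and Ifi47 (Irgd) load onto the vacuoles of intracellular parasites and bacteria and help to disrupt them. The regulatory GTPases Irgm1, Irgm2 and Igtp (Irgm3) sit on the cell's own membranes and hold the effectors inactive there. Gm4951 is an IRG gene of the same family whose function is less well defined.

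The 8 genes lay in 3 places of the mm10 genome (GENCODE vM21). Irgm1, Tgtp1, Tgtp2 and Ifi47 stood within 235007 bases at chr11:48861968-49096974, and Igtp and Irgm2 within 23227 bases at chr11:58199556-58222782. Gm4951 (chr18:60212080-60247820) and Iigp1 (chr18:60376027-60392634) were neighbours on chromosome 18.

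In the GENCODE vM21 annotation Igtp overlapped Irgm2 on the same strand over 7974 bases. The last 500 bases of the Tgtp1 and Tgtp2 transcripts shared all 441 of their 60-base words with each other, and the kit reads the 3' end. The split of reads between Tgtp1 and Tgtp2 is therefore uncertain throughout, and so is the level counted for each. Of the 441 words of Irgm1, 8 also occurred in other genes, and the other 5 members shared none. In the same annotation Tgtp1 also overlapped Gm12185 on the same strand over 6900 bases, and Ifi47 overlapped Olfr56 over 20388 bases.

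The sequences shown next are the 150 bases directly before the annotated gene start of the 6 members whose start-site sequence was used (RefSeq, GRCm38.p6, read 5′ to 3′ on the gene's strand), because their letters show which members carry the same pair of interferon-type motifs. Capitals mark matches to TTCNNNGAA, the gamma-activated sequence (GAS), an interferon-gamma response motif, and to an ISRE-like core, like that of the interferon-stimulated response element: TTTC, any 2 bases, and TTTC again. Both motifs were searched on both strands from 250 bases before to 50 bases after the start. RefSeq and GENCODE did not place every start alike. The windows of Irgm2, Tgtp1 and Irgm1 lay inside the GENCODE spans of these genes. The Irgm2 window lay past the GENCODE end of Igtp (chr11:58207591), so from its RefSeq start Irgm2 did not overlap that span.
Igtp, chr11:58199406-58199555, plus strand: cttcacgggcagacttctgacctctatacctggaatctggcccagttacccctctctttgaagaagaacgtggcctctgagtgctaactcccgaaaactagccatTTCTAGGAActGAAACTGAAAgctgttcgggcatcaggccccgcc
Irgm2, chr11:58214827-58214976, plus strand: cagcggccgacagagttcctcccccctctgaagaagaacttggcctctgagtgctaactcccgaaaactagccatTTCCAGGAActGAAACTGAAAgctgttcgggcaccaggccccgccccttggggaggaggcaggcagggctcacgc
Tgtp1, chr11:48992247-48992396, minus strand: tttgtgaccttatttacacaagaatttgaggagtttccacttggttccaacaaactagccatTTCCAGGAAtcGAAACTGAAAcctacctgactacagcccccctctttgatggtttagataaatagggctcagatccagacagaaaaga
Tgtp2, chr11:49064213-49064362, minus strand: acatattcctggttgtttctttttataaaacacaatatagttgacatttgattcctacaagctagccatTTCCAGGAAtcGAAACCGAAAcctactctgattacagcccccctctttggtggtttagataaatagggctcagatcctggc
Irgm1, chr11:48871421-48871570, minus strand: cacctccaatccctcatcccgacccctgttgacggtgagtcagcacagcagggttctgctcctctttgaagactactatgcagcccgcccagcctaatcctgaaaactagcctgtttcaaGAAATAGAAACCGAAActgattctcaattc
Ifi47, chr11:49076437-49076586, plus strand: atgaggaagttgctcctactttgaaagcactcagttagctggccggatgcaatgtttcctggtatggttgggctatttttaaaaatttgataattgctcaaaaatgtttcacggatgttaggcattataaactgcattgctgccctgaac
Of the 6 windows, 4 held a GAS match (Igtp, Irgm2, Tgtp1 and Tgtp2), against 8.3% of 32851 mouse windows of the same length. The ISRE-like core was in 5, the same 4 and Irgm1, where 2 matches overlapped, against 3.44% of all windows. In Igtp, Irgm2, Tgtp1 and Tgtp2 the GAS match ended 2 bases before the ISRE-like match began. This joint pattern, a GAS match, any 2 bases and the reverse complement of the ISRE-like core, was searched on both strands after the sequences had been seen, and it was in 5 of the 32851 windows (0.0152%), 4 of them these members and the fifth Gm12185. The Ifi47 window held neither motif. It lay before the 5′ end of a gene span of 20388 bases, and no start further inside that span was searched. The letters around the motifs were nearly the same in Igtp and Irgm2, and again in Tgtp1 and Tgtp2. Gm12185 overlapped Tgtp1 over 6900 bases. The matching windows are therefore not independent of each other, and their number beside the share of all windows is a description. A match describes letters only.

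The libraries held 18324 and 10344 barcodes from KO tumours and 9239 and 9369 from WT tumours, with 94213071 to 130466357 unique molecular identifiers (UMIs, counted transcripts) per library. After filtering, 17207 and 9498 KO cells and 8664 and 8815 WT cells remained. KO cells were shallower, with medians of 6052 and 8308 UMIs, against 9905.5 and 12133 in WT cells. Pairs of libraries shared 22 to 51 barcodes.

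Each cell was assigned to a class by its own marker UMIs, and UMIs were then summed per class and library and are given as CPM, UMIs per 1000000 UMIs of that sum. A 3' kit counts each transcript once whatever its length, so levels of different genes are set side by side without a length correction. The levels of Tgtp1 and Tgtp2 are an exception, because their 3' ends are shared. Macrophage-like cells (C1qa, Apoe, Adgre1 and others) were the largest class, with 9123 and 5048 KO cells and 5185 and 5972 WT cells. A change is the log2 ratio of KO over WT from edgeR's quasi-likelihood test with its standard error (SE), and was called at a Benjamini-Hochberg adjusted p under 0.05 over all genes tested. In bulk sums like these, more cells expressing a gene and more RNA per expressing cell cannot be told apart.

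In macrophage-like cells all 8 members were called higher, where 6.21% of the 12528 genes tested were called higher. Every member was also higher in both KO libraries than in both WT libraries. The share of all genes in that order was not counted, here or below, so the order is given as a description. Iigp1, an effector that coats parasite vacuoles, changed most and was also the most abundant member, with 255 and 194 CPM in KO cells and 31.9 and 38.4 CPM in WT cells. Its means were 224 ± 43.3 CPM in KO and 35.1 ± 4.56 CPM in WT (SD, n = 2 each), and its log2 change was 2.79 (SE 0.17, edgeR's quasi-likelihood test, Benjamini-Hochberg adjusted p = 0.000812). The 2 WT libraries lay close together, and the lower KO library was well above both. Gm4951, its neighbour on chromosome 18, had 43.1 and 34.9 CPM in KO cells and 6.66 and 9.51 CPM in WT cells, a log2 change of 2.38 (SE 0.22, edgeR, adjusted p = 0.00572).

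The regulators were higher too, by less. Igtp had 71.8 and 54.4 CPM in KO macrophage-like cells and 15.6 and 18.6 CPM in WT ones, a log2 change of 2.00 (SE 0.17). Irgm1 had 77.2 and 66.8 CPM in KO and 19.6 and 22.6 CPM in WT (log2 change 1.88, SE 0.12). Irgm2 had 26.3 and 18.9 CPM in KO and 9.90 and 8.02 CPM in WT (log2 change 1.46, SE 0.17), the smallest of the 8. Their adjusted p-values ran from 0.000586 for Irgm1 to 0.00566 for Irgm2 (edgeR's quasi-likelihood test). None of these 3 overlapped between genotypes.

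Among the other effectors, Ifi47 had 91.6 and 78.2 CPM in KO and 29.0 and 33.3 CPM in WT macrophage-like cells, a log2 change of 1.56 (SE 0.12). Tgtp2 was counted at 9.67 and 7.05 CPM in KO and 2.09 and 1.96 CPM in WT (log2 change 2.16, SE 0.18). Tgtp1 rested on 98 and 49 UMIs in KO and 19 and 18 UMIs in WT (log2 change 1.88, SE 0.37, edgeR's adjusted p = 0.0181). Tgtp1 was not called without KO 1, without WT 1 or without WT 2 (adjusted p = 0.0715, 0.0516 and 0.0612), and its share of reads with Tgtp2 is uncertain.

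Summed over the 8 members, macrophage-like cells had 576 and 455 CPM in KO and 115 and 133 CPM in WT. The make-up of this sum differed as well. Iigp1 supplied 44.3% and 42.6% of the members' UMIs in KO and 27.7% and 28.9% in WT, and it had 3.55 and 3.56 UMIs per Igtp UMI in KO against 2.04 and 2.06 in WT. T cell marker transcripts in the macrophage-like sums moved with genotype: all 6 were detected, with a summed level of 16.8 and 12.1 CPM in KO and 1.30 and 3.44 CPM in WT. In CD8 T-like cells the same 6 markers stood at 5359 and 5491 CPM in KO, where the members' sum was 259 and 208 CPM, below that of the KO macrophage-like cells. In CD4 T-like cells the 6 markers stood at 4247 and 4597 CPM in KO, where the members' sum was 681 and 1102 CPM, above it. Monocyte markers also moved with genotype in the macrophage-like sums, at 248 and 246 CPM in KO and 507 and 419 CPM in WT. The summed dissociation-stress genes stood at 4447 and 3854 CPM in KO and 3666 and 3615 CPM in WT macrophage-like cells. The part of these markers and genes in the result was not tested.

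**Figure D1:**
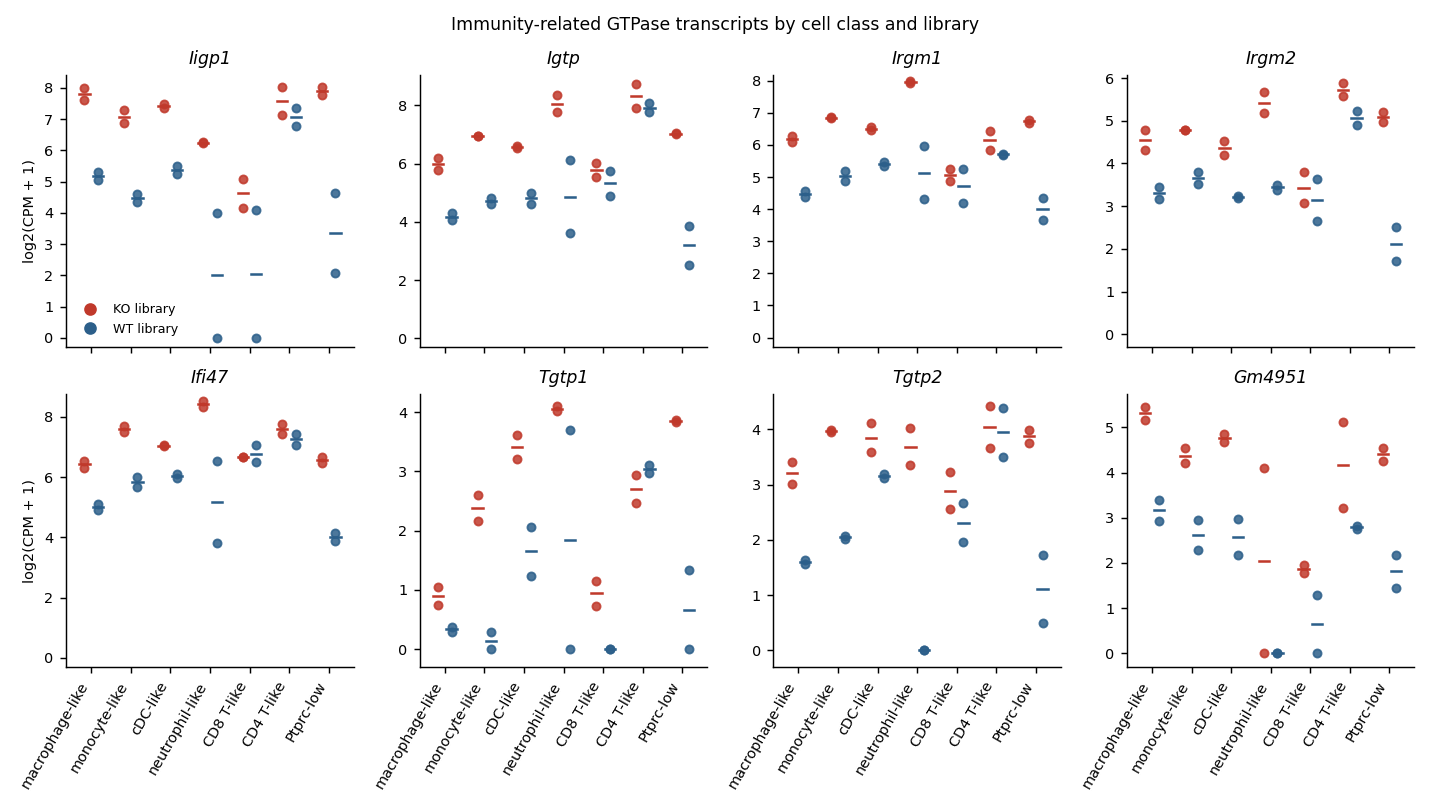
Level of each member, as log2(CPM + 1), in each cell class, with KO libraries (red) left of WT libraries (blue) within a class, 1 point per library and a short line at the mean of the 2 points. Macrophage-like, monocyte-like and cDC-like KO points lie above the WT points for all 8 members, while in CD4 T-like cells the Igtp points of both genotypes overlap (242 and 429 CPM in KO, 267 and 217 CPM in WT).

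Monocyte-like cells (Ly6c2, Plac8, Ccr2; 1485 and 890 KO cells, 1098 and 680 WT cells) showed the same direction, with all 8 members called higher, where 13.4% of 10333 genes were called higher. Iigp1 had 154 and 117 CPM in KO and 19.4 and 23.4 CPM in WT, a log2 change of 2.82 (SE 0.16, edgeR's quasi-likelihood test, Benjamini-Hochberg adjusted p = 4.91e-07). Igtp had 123 and 124 CPM in KO and 23.6 and 27.1 CPM in WT (log2 change 2.42, SE 0.12), and Irgm1 115 and 113 CPM in KO and 28.2 and 35.3 CPM in WT (1.99, SE 0.13). Ifi47 was the most abundant member here, not Iigp1, with 180 and 207 CPM in KO and 49.6 and 63.2 CPM in WT. Tgtp1 had 41 and 20 UMIs in KO and 2 and 0 in WT, a pooled ratio of 32.2 with a 95% counting interval of 8.53 to 272. In this class 24.2% of cells lay within 1.25-fold of the gate. Where classes were taken from clusters instead, with 2085 and 1243 KO cells and 386 and 389 WT cells, 3 of the 8 members were called, 301 of 10026 genes were called higher, and the members' median log2 change was 0.80, against 2.23 in the gated class. There Iigp1 had a log2 change of 1.32 (edgeR's adjusted p = 0.115). The summed stress genes were at 5483 and 4996 CPM in KO and 4274 and 4021 CPM in WT monocyte-like cells. The gate's own 7 monocyte markers summed to 4505 and 4581 CPM in KO and 2758 and 2760 CPM in WT, with Ly6c2 at 907 and 946 CPM in KO and 192 and 285 CPM in WT. The 6 T cell markers summed to 31.9 and 22.4 CPM in KO and 1.11 and 4.64 CPM in WT. The part of these genes in the changes of the 8 members was not tested.

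Conventional dendritic cell-like (cDC-like) cells, marked by Flt3, Zbtb46, Xcr1 and others (686 and 416 KO cells, 326 and 322 WT cells), had 7 of the 8 members called higher, where 6.15% of 9843 genes were called higher. Iigp1 had 161 and 176 CPM in KO and 36.9 and 44.4 CPM in WT, a log2 change of 2.11 (SE 0.13, edgeR's quasi-likelihood test, adjusted p = 7.39e-07). The WT levels of Irgm1 and Ifi47 were higher in this class than in WT macrophage-like cells: Irgm1 had 87.3 and 93.4 CPM in KO and 43.5 and 39.9 CPM in WT (log2 change 1.17, SE 0.12), and Ifi47 had 130 and 132 CPM in KO and 61.1 and 67.6 CPM in WT (1.08, SE 0.12). Tgtp2 had 11.1 and 16.2 CPM in KO and 7.73 and 8.19 CPM in WT and was not called (log2 change 0.81, SE 0.27, edgeR's adjusted p = 0.0726). Markers moved with genotype in these sums, and their part in the result was not tested. The 9 cDC markers summed to 1748 and 1631 CPM in KO and 2543 and 2782 CPM in WT, the 10 macrophage markers to 3216 and 2938 CPM in KO and 2444 and 2177 CPM in WT, and the 6 T cell markers to 16.7 and 16.0 CPM in KO and 1.76 and 4.10 CPM in WT. C1qa, a macrophage gene, stood in cDC-like cells at 14.0% and 16.2% of its macrophage-like level in KO and 20.4% and 13.9% in WT. This level was limited by the gate, which kept out cells whose macrophage markers, C1qa among them, reached 100 per 10000 UMIs.

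Neutrophil-like cells (S100a8, S100a9, Retnlg) were few, 340 and 76 in KO and 172 and 108 in WT. Of the 5 members that passed the filter on low counts, 4 were called higher, where 5.71% of 5765 genes were called higher; Tgtp1, Tgtp2 and Gm4951 did not pass it. Irgm1 had 251 and 243 CPM in KO and 61.6 and 18.8 CPM in WT, a log2 change of 2.70 (SE 0.38, edgeR's quasi-likelihood test, adjusted p = 0.00183). Igtp had 218 and 324 CPM in KO and 68.4 and 11.3 CPM in WT (2.78, SE 0.63, edgeR's adjusted p = 0.0443), so the WT libraries lay far apart. Ifi47 had 317 and 365 CPM in KO and 90.6 and 13.2 CPM in WT and was not called (2.78, SE 0.73, edgeR's adjusted p = 0.0913). Iigp1, called at a log2 change of 3.43, rested on 64 and 15 UMIs in KO and 0 and 8 UMIs in WT. Macrophage markers in these sums moved with genotype, at 13068 and 16246 CPM in KO and 4098 and 6051 CPM in WT. Igtp stood in KO neutrophil-like cells at 304% and 596% of its level in KO macrophage-like cells, where C1qa was at 46.0% and 42.3%, while Iigp1 was at 29.0% and 39.2%. The part of macrophage RNA in the Iigp1 result was not tested. With the replicate number as a block 1 member was called in this class, where 39 of 5765 genes were called higher. With DESeq2 it was also 1, where 155 genes were called higher. Without a filter on low counts 7 were called, where 411 of 12263 genes were called higher.

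CD8 T-like cells differed in number, with 1043 and 423 in KO and 30 and 98 in WT. None of the 5 members tested was called by edgeR's quasi-likelihood test, where 0.752% of 8643 genes were called higher; 2 had an unadjusted p under 0.05, and DESeq2 called 0. Without the filter on low counts 1 member was called, where 262 of 13306 genes were called higher. With classes from clusters it was also 1, where 45 of 9904 genes were. The tested members' median log2 change was 0.87 without KO 2, against 0.67 with all libraries. Ifi47 was the most abundant, with 100 and 101 CPM in KO and 133 and 89.3 CPM in WT, so the KO values fell between the WT ones (log2 change 0.050, SE 0.20, edgeR's adjusted p = 0.965). Igtp had 64.0 and 45.8 CPM in KO and 53.2 and 28.8 CPM in WT, with overlapping groups (0.75, SE 0.32, edgeR's adjusted p = 0.384). Iigp1 had 150 and 41 UMIs in KO and 3 and 0 in WT, a pooled ratio of 8.02 with a 95% counting interval of 2.70 to 39.2. In KO CD8 T-like cells Iigp1 stood at 12.9% and 8.66% of its macrophage-like level, and C1qa at 9.18% and 5.89%. The C1qa level was limited by the gate, which kept out cells whose macrophage markers reached 100 per 10000 UMIs.

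CD4 T-like cells (296 and 208 in KO, 142 and 174 in WT) carried the highest WT levels of the family among the classes tested, with a summed 681 and 1102 CPM in KO and 724 and 562 CPM in WT. None of the 6 members tested was called by edgeR's quasi-likelihood test, where 0.321% of 7796 genes were called higher; 1 had an unadjusted p under 0.05, and DESeq2 called 0. Igtp had 242 and 429 CPM in KO and 267 and 217 CPM in WT (log2 change 0.47, SE 0.24, edgeR's adjusted p = 0.779). Iigp1 had 139 and 258 CPM in KO and 163 and 109 CPM in WT, and Ifi47 had 169 and 213 CPM in KO and 171 and 133 CPM in WT. In all 3 the groups overlapped, and KO 2 was the highest library. Irgm1 (56.8 and 85.8 CPM in KO, 51.9 and 50.6 CPM in WT) and Irgm2 (46.8 and 57.6 CPM in KO, 36.6 and 28.7 CPM in WT) were above both WT libraries in both KO libraries, with edgeR's adjusted p = 0.760 and 0.559. So was Gm4951, which was not tested, on 10 and 30 UMIs in KO and 4 and 5 UMIs in WT. With classes from clusters 1 member was called, where 46 of 7704 genes were called higher. The tested members' median log2 change was 0.81 without KO 1 and 0.61 without WT 1, against 0.47 with all libraries. The gate took cells by Cd4, Foxp3 or Cd40lg and so did not separate regulatory from other CD4 T cells.

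Natural killer (NK)-like cells were too few for a test at 11 and 24 WT cells, against 249 and 164 KO cells. Their summed members stood at 254 and 290 CPM in KO and 211 and 103 CPM in WT, the WT values on 9 and 14 UMIs. Where classes were taken from clusters, 1 of 6 members tested (Igtp) was called higher by edgeR, where 0.291% of 7561 genes were called higher.

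A last class, defined after the data had been seen, held deep cells low in Ptprc (the CD45 gene) that carried collagen transcripts, 76 and 134 in KO and 238 and 303 in WT. The gate took cells with Ptprc under 0.5 per 10000 UMIs, so its level of 3.83 to 7.86 CPM in them follows from the gate. By their Ptprc RNA the labelled CD45-positive type does not describe them. Krt8 had 0 UMIs in them, but over all kept cells it had only 1 UMI, in WT 1, so it does not tell them apart. The class's own markers moved with genotype: the 5 fibroblast markers summed to 1455 and 1040 CPM in KO and 2745 and 2034 CPM in WT, and Col1a1 stood at 6.29 and 40.0 CPM in KO and 318 and 114 CPM in WT. A difference in the kind of cell and a change within 1 kind cannot be told apart here. Whether they are host or tumour cells was not determined. Of the 8 members 5 were called higher, where 2.07% of 10964 genes were called higher. The members' median log2 change was 3.24 with all libraries, 2.70 without WT 1 and 4.34 without WT 2. Irgm2 had 36.1 and 30.2 CPM in KO and 2.27 and 4.73 CPM in WT, a log2 change of 3.22 (SE 0.28, edgeR's quasi-likelihood test, adjusted p = 6.34e-05). Irgm1 had 102 and 109 CPM in KO and 11.7 and 19.3 CPM in WT (2.80, SE 0.20), and Ifi47 had 100 and 87.1 CPM in KO and 13.7 and 16.8 CPM in WT (2.65, SE 0.15). Iigp1 had 259 and 218 CPM in KO and 3.20 and 23.8 CPM in WT and was not called (4.11, SE 1.02, edgeR's adjusted p = 0.315). C1qa was at 0.856% to 1.54% of its macrophage-like level in these cells, and Iigp1 in KO at 102% and 113%. The gate kept out cells whose macrophage markers, C1qa among them, reached 15 per 10000 UMIs. The low C1qa level was thus set by the gate, and the part of macrophage RNA in the Iigp1 level was not tested.

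**Figure D2:**
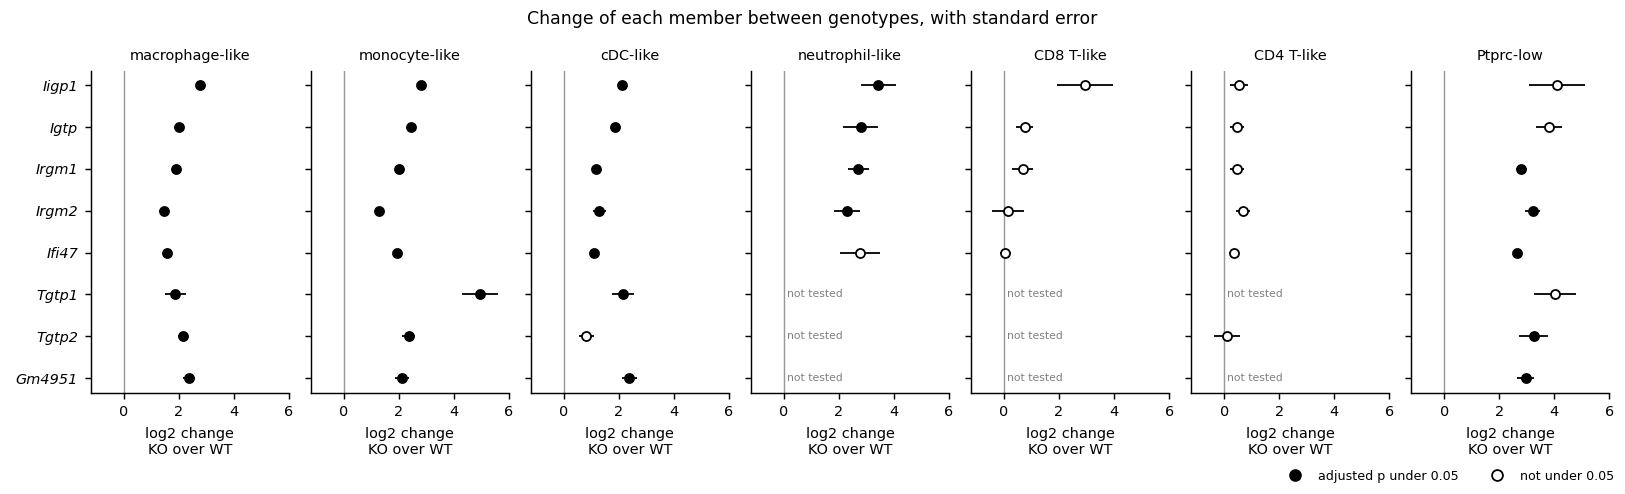
Log2 change of each member, KO over WT, in each tested class, with a horizontal line for 1 standard error, filled points for an adjusted p under 0.05 and open points otherwise. The macrophage-like changes lie between 1.46 and 2.79, and the CD4 T-like ones between 0.10 and 0.69 with none called.

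The change was then compared between classes in 1 model per pair, with the library as a block (edgeR's quasi-likelihood test of the class-by-genotype interaction, Benjamini-Hochberg adjusted over all genes). Between cDC-like and macrophage-like cells 4 of 8 members differed, all with the smaller change in cDC-like cells, where 4.01% of 12432 genes were called lower: Iigp1, Irgm1, Ifi47 and Tgtp2. Against CD8 T-like cells Igtp and Ifi47 differed, where 1.11% of 12382 genes were called lower. Against CD4 T-like cells Irgm1, Ifi47 and Tgtp2 differed, where 1.12% of 12428 genes were called lower. The call of Igtp against CD8 T-like cells and that of Tgtp2 against CD4 T-like cells each held in 2 of 6 other settings. Ifi47 was called in all 3 of these comparisons. The differences of Igtp, Irgm1, Irgm2 and Tgtp2 were also negative in all 3, and no test compared the members with each other. In monocyte-like cells Tgtp1 alone was called, where 6.5% of 12207 genes were called higher, and its WT level there rests on 2 UMIs. That Tgtp1 call held in 1 of 5 other settings. In the Ptprc-low cells Igtp, Irgm1, Irgm2 and Ifi47 had the larger change, where 2.04% of 13068 genes were called higher. For neutrophil-like cells 0 of 8 were called by edgeR, where 2.74% of 12050 genes were called in either direction, with 3 at an unadjusted p under 0.05; DESeq2 called 0. These counts moved with single libraries, and so did the number of all genes called. The members' median difference was -0.31 in cDC-like cells, and -0.16 without KO 1. In monocyte-like cells it was 0.16, and 0.31 without KO 1 and 0.038 without KO 2. In neutrophil-like cells it was 0.87, and 3.18 without WT 1. In CD8 T-like cells it was -1.10, and -1.21 without KO 1, -0.92 without KO 2 and -0.77 without WT 1. In CD4 T-like cells it was -1.49, and -2.05 without KO 2 and -1.73 without WT 2. In Ptprc-low cells it was 1.29, and 1.35 without KO 1, 1.23 without KO 2 and 2.60 without WT 2. DESeq2 called 1 member in cDC-like cells, where 128 and 178 of 16241 genes were called higher and lower. It called 1 in CD8 T-like cells (21 and 67 of 16269 genes) and 0 in monocyte-like cells (435 and 238 of 16233 genes).

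The macrophage-like class was a mixture whose parts differed in size between genotypes, so each member was also taken within 6 subsets cut by marker scores. Cells of the Arg1 Inhba subset made up 25.7% and 29.8% of macrophage-like cells in KO and 9.10% and 12.2% in WT. Within it, 7 of 7 members tested were called higher, where 2.47% of 10844 genes were. Iigp1 had 217 and 161 CPM there in KO and 8.40 and 11.6 CPM in WT, a log2 change of 4.20 (SE 0.21, edgeR's quasi-likelihood test, adjusted p = 0.000184). The summed members stood at 485 and 380 CPM in KO cells of this subset and at 57.6 and 78.9 CPM in WT ones.

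The C3 Vcam1 subset was the opposite case in WT. It made up 33.5% and 20.4% of macrophage-like cells in KO and 3.41% and 6.58% in WT, and its summed members stood at 836 and 778 CPM in KO and 474 and 277 CPM in WT, the highest of the 6 subsets in each of the 4 libraries. Iigp1 had 364 and 349 CPM in KO and 206 and 109 CPM in WT (log2 change 1.33, SE 0.24, edgeR's adjusted p = 0.0279). In it 5 of 8 members were called, where 1.91% of 10703 genes were called higher. Irgm2, Ifi47 and Tgtp1 were not. The difference between subsets in their change was not tested.

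Among the others, 7 of 7 were called in the Fcrls Cx3cr1 subset (2.09% of genes called higher) and 7 of 7 in cycling cells (8.2%). In the Chil3 Ear2 subset 6 of 7 were called (4.51%), all but Iigp1, which had 217 and 136 CPM in KO and 13.3 and 27.9 CPM in WT (edgeR's adjusted p = 0.190). In the Mmp12 Mmp13 subset 4 of 7 were called (2.88%). The number called moved with the library left out, and so did the number of all genes called. With a library left out the tested members' median log2 change ran from 1.67 (without KO 1) to 3.06 (without WT 2), against 1.78 with all libraries. With the 6 subsets weighted equally in every library, limma on log2(CPM + 1) called 7 of 8 members higher, all but Tgtp1, where 2.91% of 12528 genes were called higher.

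**Figure D3:**
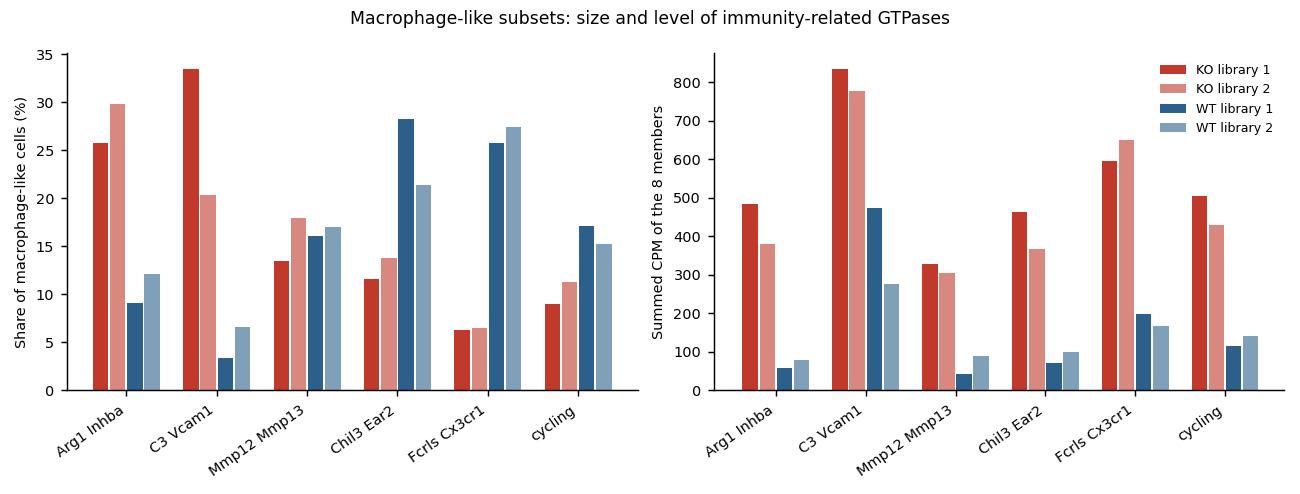
Share of macrophage-like cells in each subset (percent, left) and summed CPM of the 8 members within it (right), with KO libraries (red) left of WT libraries (blue) and 1 bar per library. The C3 Vcam1 subset has the highest sums in all 4 libraries (836 and 778 CPM in KO, 474 and 277 CPM in WT) and the Arg1 Inhba subset 485 and 380 CPM in KO and 57.6 and 78.9 CPM in WT.

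Counts per cell were compared in cells with 2000 UMIs or more, each thinned to 2000 UMIs, and shallower cells were left out. This kept 13109 of 17207 and 7463 of 9498 KO cells. Of the WT cells it kept 7305 of 8664 and 7964 of 8815. The loss was uneven between classes too: 82 of 340 and 27 of 76 KO neutrophil-like cells were kept. Of macrophage-like cells 47.5% and 42.1% in KO held a UMI of at least 1 member, against 14.6% and 15.4% in WT. Cells with 3 or more different members made up 9.05% and 6.58% in KO and 1.49% and 1.25% in WT. In monocyte-like cells 53.7% and 50.6% in KO and 17.8% and 24.0% in WT held a member, and in cDC-like cells 48.0% and 47.6% in KO and 21.9% and 20.9% in WT. CD4 T-like cells were high in both genotypes, at 62.6% and 77.8% in KO and 54.4% and 57.1% in WT. No class here can be taken to lack the family, so no background share from free RNA could be given. C1qa stood in CD8 T-like cells at 9.18% and 5.89% of its macrophage-like level in KO and 3.57% and 10.4% in WT, a level that the gate limited. A share of cells with a UMI also rises with the mean level, so these shares do not separate more expressing cells from more RNA per cell. Among the classes tested the lowest shares at the same depth were 5.46% and 12.2% in WT Ptprc-low cells and 8.70% and 5.26% in WT neutrophil-like cells, the last on 46 and 38 cells.

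**Figure D4:**
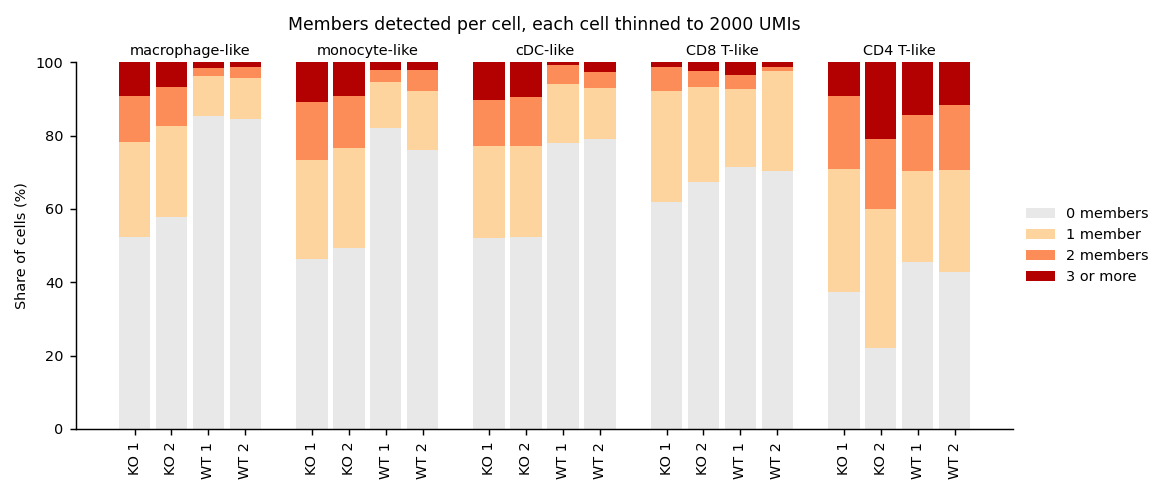
Percent of cells that held UMIs of 0, 1, 2 or at least 3 different members, stacked by library in 5 classes, with KO libraries left of WT libraries. Only cells with 2000 UMIs or more are included, each thinned to 2000 UMIs. Among macrophage-like cells 9.05% and 6.58% in KO held at least 3 members, against 1.49% and 1.25% in WT.

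Other genes of the pathway were counted from lists, to be read in macrophage-like cells beside the 6.21% of all 12528 genes tested that were called higher. In macrophage-like cells 9 of 10 guanylate-binding proteins tested were called higher, a family of interferon-induced GTPases that act beside the IRGs on vacuoles, with a median log2 change of 1.91 against -0.01 over all genes. Gbp2 had 319 and 249 CPM in KO and 54.2 and 77.0 CPM in WT (log2 change 2.23, SE 0.23, edgeR's quasi-likelihood test, adjusted p = 0.00834). Gbp2b was not called. Of 7 other IRG-related genes 4 were called higher, among them 9930111J21Rik2 with 49.8 and 40.7 CPM in KO and 30.3 and 33.7 CPM in WT, while Irgq and Irgc1 were not.

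Of 9 genes of interferon-gamma signalling, 4 were called higher in macrophage-like cells and 5 were not, where 6.21% of 12528 genes were called higher. Irf1, a transcription factor, and Socs1, a feedback inhibitor, rose with log2 changes of 1.80 and 1.91 (edgeR's quasi-likelihood test). The receptor chains were not called, Ifngr1 at 162 and 142 CPM in KO and 188 and 196 CPM in WT and Ifngr2 at 131 and 125 CPM in KO and 109 and 118 CPM in WT. Jak1, Jak2 and Ptpn2 were not called either. Ifng itself, the ligand, was called in these sums on 254 and 160 UMIs in KO and 0 and 18 in WT, and moved there with the T cell markers given above. Over all kept cells it stood at 43.4 and 36.9 CPM in KO and 1.09 and 3.13 CPM in WT. Within CD8 T-like cells Ifng was at 710 and 1261 CPM in KO and 234 and 236 CPM in WT, and within CD4 T-like cells at 684 and 68.9 CPM in KO and 44.3 and 74.7 CPM in WT, where the KO libraries lay far apart and overlapped WT. Within NK-like cells it was at 133 and 116 CPM in KO and 141 and 133 CPM in WT.

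Of 15 genes of the type I interferon response, 4 were called higher in macrophage-like cells: Irf9, Stat2, Oas1a and Oasl2. Of all 12528 genes tested there, 6.21% were called higher. Ifit1, which type I interferon induces strongly, had 9.82 and 11.9 CPM in KO and 10.6 and 15.9 CPM in WT. In monocyte-like cells 13 of 14 were called higher, beside 8 of 8 guanylate-binding proteins, where 13.4% of 10333 genes were called higher. In cDC-like cells 3 of 14 were, beside 8 of 8, where 6.15% of 9843 genes were called higher. Of 14 genes of the autophagy machinery that targets vacuoles, 1 was called in macrophage-like cells (Trim21, log2 change 0.64), 7 in monocyte-like and 0 in cDC-like cells by edgeR. Of 8 dissociation-stress genes 1 was called higher in macrophage-like cells (Atf3, 0.46), and 6 were in monocyte-like cells. No gene of these lists was called in CD4 T-like cells by edgeR.

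**Figure D5:**
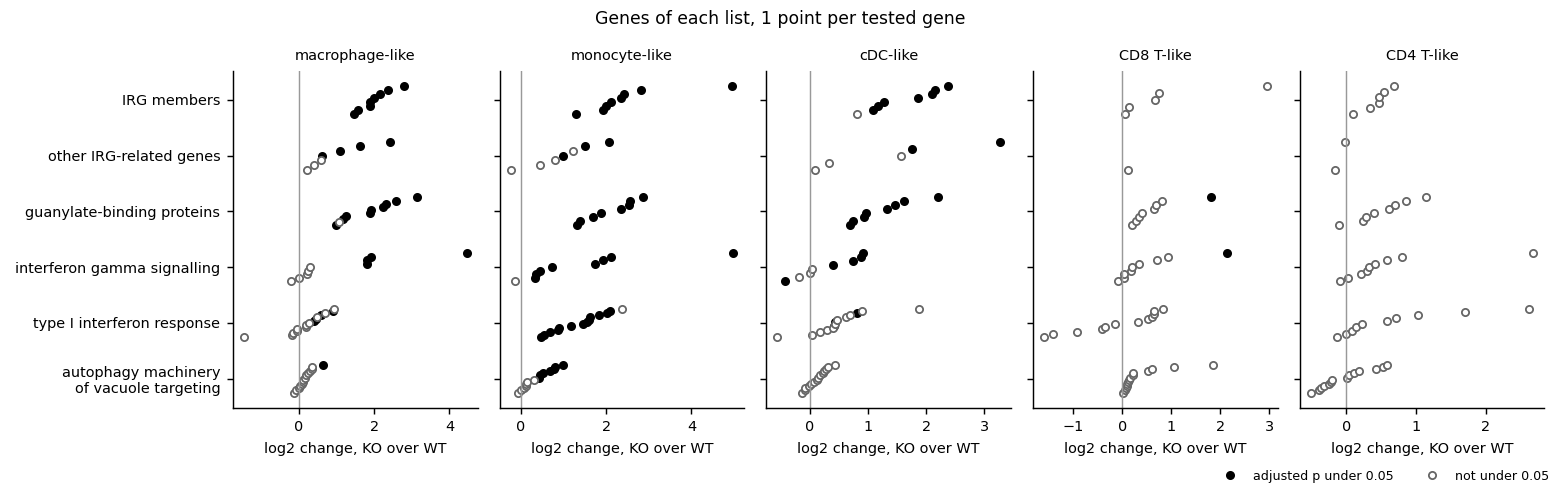
Log2 change, KO over WT, of the tested genes of each list in 5 classes, with 1 point per gene, filled for an adjusted p under 0.05; the panels differ in their horizontal scale. In macrophage-like cells the guanylate-binding proteins (median 1.91) and the IRG members (median 1.94) lie to the right of most type I interferon genes (median 0.26).

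Across the 24 sums of the 6 planned classes, the 10 genes whose log2(CPM + 1) was most like the members' mean among 7746 genes included B2m (Pearson's r = 0.908), H2-D1 (0.893), Gbp3 (0.891), Dtx3l (0.889), Tapbp (0.886), Parp14 (0.871), Zbp1 (0.856), Ly6a (0.833) and Gbp7 (0.828). These sums share libraries and cell classes, so the values are a description. Within the family, Irgm2 followed the mean of the other members most closely (0.844) and Gm4951 least (0.521).

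Over all kept cells together, 8 of 8 members were called higher, where 4.36% of 13639 genes were. The summed members stood at 566 and 484 CPM in KO and 122 and 138 CPM in WT. Without WT 1, 0 of 8 were called by edgeR's quasi-likelihood test, with all 8 at an unadjusted p under 0.05, and with the replicate number as a block 0 of 8 were called. The members' median log2 change was 2.02 without WT 1 and 2.05 with the block, against 2.05 with all libraries and no block. Of all genes, 9 were called higher without WT 1 and 0 with the block.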

How the data were processed

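The deposited values are UMI counts, unnormalised, in 1 sparse matrix per library. The authors made them with Cell Ranger on mm10; the file headers name version 5.0.0, and the submitters' processing notes 5.0.1 beside Seurat 3.15, whose use is not stated. The labels give the molecule as genomic DNA, although their protocol describes cDNA libraries from a 10x Genomics 3' kit. Of the 22620 gene identifiers 22565 were found in GENCODE vM21.

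Cells needed 200 genes or more and no more than 20% of UMIs from mitochondrial genes. Each cell was gated by its marker UMIs (for macrophages 30 per 10000 UMIs, for monocytes 15), and cells that met no gate or carried markers of a second lineage stayed ungated, 21.8% and 21.5% of KO cells and 15.4% and 12.3% of WT cells. No doublet caller was run. Classes are rebuilt from markers, and gate thresholds and the Ptprc-low class were set after seeing the data. The members and lists were chosen with earlier results of these data known. All 8 members are named in each class, up to 4 genes of each other list where a result turns on them, and the 10 genes most like the members; other list genes (Oas1a, Oasl2, Irf9, Stat2, Ifit1, Trim21, Atf3, the IRG-related genes and the receptor chains) were named after their values were seen.

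Sums of the deposited UMI counts were formed for each class in each library, given 20 or more cells in all of them, and tested with edgeR 4.0.16 (filterByExpr, TMM, robust quasi-likelihood fit) in R 4.3.3 with Benjamini-Hochberg adjustment. The steps were tested on simulated data. DESeq2 1.42.0, limma 3.58.1, clusters (scanpy 1.11.5) and other settings were alternatives. Counting intervals are exact at 95% and cover counting error only. Macrophage subsets were cut from marker scores and are ranges, not types. Motif searches used RefSeq windows of GRCm38.p6. The targeted gene and 1 gene of the interferon-gamma list are not reported here.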

Additional observations from a re-analysis of the deposited data

Results flagged for a closer look

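In each result below the change of a member between KO and WT differed between 2 cell classes in a direct test, edgeR's quasi-likelihood test of the class-by-genotype interaction with Benjamini-Hochberg adjustment over all genes. Values are the log2 change in the named class minus that in macrophage-like cells.

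In cDC-like cells the change was smaller than in macrophage-like cells for Iigp1 (-0.66, SE 0.14, adjusted p = 0.00332), Irgm1 (-0.70, SE 0.13, adjusted p = 5.88e-05), Ifi47 (-0.47, SE 0.11, adjusted p = 0.00264) and Tgtp2 (-1.33, SE 0.33, adjusted p = 0.00403). The median difference of the 8 members in this comparison was -0.16 without KO 1, against -0.31 with all libraries. The cDC-like WT cells had higher levels of Ifi47 (61.1 and 67.6 CPM) than WT macrophage-like cells (29.0 and 33.3 CPM), while the KO levels were 130 and 132 CPM in cDC-like and 91.6 and 78.2 CPM in macrophage-like cells.

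In CD8 T-like cells the change was smaller for Igtp (-1.15, SE 0.34, adjusted p = 0.0309) and Ifi47 (-1.42, SE 0.22, adjusted p = 5.27e-08). In CD4 T-like cells it was smaller for Irgm1 (-1.42, SE 0.27, adjusted p = 0.000494), Ifi47 (-1.23, SE 0.21, adjusted p = 0.000223) and Tgtp2 (-2.06, SE 0.53, adjusted p = 0.0246). KO CD8 T-like sums rest on 1043 and 423 cells and WT ones on 30 and 98. Igtp in CD8 T-like cells kept its call in 2 of 6 other settings, left-out libraries included (differences of -1.93 to -0.76). Tgtp2 in CD4 T-like cells also kept it in 2 of 6 (-2.65 to -1.49). The calls of Ifi47 in both classes and of Irgm1 in CD4 T-like cells held in 6 of 6.

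In the Ptprc-low cells the change was larger for Igtp (1.86, SE 0.32, adjusted p = 0.0397), Irgm1 (0.92, SE 0.17, adjusted p = 0.00723), Irgm2 (1.77, SE 0.30, adjusted p = 0.00882) and Ifi47 (1.07, SE 0.13, adjusted p = 0.000767). The median difference of the 8 members in this comparison was 1.35 without KO 1, 1.23 without KO 2 and 2.60 without WT 2. With all libraries it was 1.29. In monocyte-like cells the change was larger for Tgtp1 (3.30, SE 0.93, adjusted p = 0.0274), on 2 and 0 UMIs in WT. Tgtp1 was not called without KO 2, and its call held in 1 of 5 other settings, with differences of 2.73 to 8.51.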

How the results depend on the processing

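Of 88 counts of members called under other settings, 77 stayed within 1.5 times of the value reported, 7 were lower and 4 higher; of 498 values of single members 442 kept their direction and side of the threshold, 30 lost the call, 18 gained it and 8 changed sign. DESeq2 called 1 member in neutrophil-like cells (3 of the 5 tested had an adjusted p) and, for differences between classes, 0 in monocyte-like, 1 in cDC-like and 1 in CD8 T-like cells. Without a filter on low counts 7 members were called in neutrophil-like and 1 in CD8 T-like cells. Classes from clusters gave 3 in monocyte-like, 1 in CD8 T-like and 1 in CD4 T-like cells. The numbers of all genes called under these settings are given with each class above. The replicate numbers are not stated to pair libraries, and same-numbered libraries' deviations correlated at 0.0266 over all kept cells; with the replicate block 0 of 8 were called over all kept cells and 1 in neutrophil-like cells, and the member counts in the other classes stayed within 1.5 times. The block could not be added to the differences between classes, which already hold the library as a block.

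Leaving out 1 library moved the number of members called, and the number of all genes called moved as well, so effect sizes are given. Over all kept cells the members' median log2 change ran from 1.92 (without KO 1) to 2.18 (without KO 2), against 2.05 with all libraries. In macrophage-like, monocyte-like, cDC-like and neutrophil-like cells the number of members called stayed within 1.5 times of that reported. In CD8 T-like cells the tested members' median was 0.87 without KO 2, against 0.67. For CD4 T-like cells it was 0.81 without KO 1 and 0.61 without WT 1, against 0.47. Ptprc-low cells had 2.70 without WT 1 and 4.34 without WT 2, against 3.24. Among macrophage subsets the number called moved most in Mmp12 Mmp13, where the median ran from 1.67 to 3.06, against 1.78. The median differences from macrophage-like cells are given above. A sole remaining library is assumed to vary like the other group's.

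Signs changed only in T-like cells, for members not called. Irgm2 in CD8 T-like cells was -0.063 with the block, -0.049 without the 5% deepest cells, and -0.053 (without WT 1) to 1.15 with 1 library left out. Ifi47 in CD8 T-like cells was -0.022 with total UMIs in place of TMM, -0.25 (without WT 2) to 0.23 with 1 library left out, -0.11 without the 5% deepest cells and -0.21 with a stricter gate, and in CD4 T-like cells -0.11 with cells thinned to 2000 UMIs. Tgtp2 in CD4 T-like cells was -0.28 without KO 2 and -0.33 without WT 2 (up to 0.58 with another library left out), -0.10 from clusters and -0.17 with a stricter gate. The cause of these changes was not tested.

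Total UMIs in place of TMM moved the median of all genes to -0.13 in macrophage-like and -0.16 in monocyte-like cells, and the genes called higher and lower were 567 and 1161 in macrophage-like (778 and 634 with TMM), 967 and 1944 in monocyte-like (1386 and 1177), 254 and 397 in neutrophil-like (329 and 312), 59 and 22 in CD8 T-like (65 and 13) and 433 and 293 over all kept cells (595 and 197). For differences between classes they were 516 and 388 in cDC-like (410 and 499), 83 and 97 in CD4 T-like (69 and 139) and 443 and 121 in Ptprc-low cells (266 and 186). No member count moved by over 1.5 times with this scaling. Over all settings but the left-out libraries, genes called in either direction ran from 761 to 1886 in macrophage-like (1412 reported), 406 to 3048 in monocyte-like (2563), 311 to 1601 in cDC-like (1096), 64 to 831 in neutrophil-like (641), 27 to 365 in CD8 T-like (78), 9 to 147 in CD4 T-like (32) and 71 to 756 in Ptprc-low cells (299), and from 0 to 2050 over all kept cells (792). The background share beside a count moves with these. The gated NK-like class could not be fitted under any setting, with under 20 cells in a WT library. The 3' kit limits Tgtp1 and Tgtp2, and 30 WT cells in 1 library limit CD8 T-like values.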

Other observations

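Classes too small to test also carried the family, as values only. Gamma delta T-like cells (91 and 35 in KO, 24 and 14 in WT) had 989 and 495 CPM of summed members in KO and 478 and 543 CPM in WT, near the CD4 T-like cells, with overlapping groups. Like CD4 T-like cells they held more Igtp than Iigp1, at 0.49 and 0.34 Iigp1 UMIs per Igtp UMI in KO and 0.24 and 0.44 in WT. Plasmacytoid dendritic-like cells (31 and 38 in KO, 35 and 18 in WT) had the opposite make-up: Iigp1 supplied 52.6% and 30.9% of the members' UMIs in KO and 53.4% and 32.6% in WT, with sums of 458 and 276 CPM in KO and 383 and 195 CPM in WT that overlapped between genotypes. B-like cells had 204 and 218 CPM in KO and 56.0 and 96.3 CPM in WT, on 6 to 18 UMIs a library.

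Cells left ungated had 532 and 529 CPM of summed members in KO and 127 and 170 CPM in WT, near the macrophage-like sums of 576 and 455 CPM in KO and 115 and 133 CPM in WT.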
